A study of Homo sapiens with 16 samples.

Results

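HepG2, a human hepatocellular carcinoma line, was the liver part of a microfluidic gut and liver chip, and the comparison described here is that between HepG2 cells grown alone (mono-culture) and HepG2 cells whose medium circulated past Caco-2, a human colon carcinoma line, in a second chamber (co-culture). It was made without free fatty acids (FFA), over the 2 HepG2 mono-culture control and the 2 HepG2 co-culture control libraries, and over every gene whose mean over these 4 libraries reached 10 CPM. CPM is a gene's read count scaled to a common library total, without correction for gene length. The filter kept 4958 of the 60623 genes listed, and 16387 had at least 1 read in any of the 4 libraries. The series as a whole held 16 libraries, with both lines, both cultures and 0 or 1 mM FFA for a labelled time of 1 day, 2 libraries in each group. All 4 libraries came from cells kept in the chip and maintained in Dulbecco's modified Eagle medium with serum, non-essential amino acids and antibiotics. The FFA were given in medium with albumin in place of serum, after a serum-free interval, and which medium the control cells had in that time is not given in the labels. Both cell types are tumour lines. HepG2 keeps much of the secretory programme of the liver but is a dividing cell, so it stands for a hepatocyte only in part.

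Hepatocytes make most proteins of blood plasma. Albumin and its fetal relative alpha-fetoprotein carry small molecules, serpins inhibit proteases or carry hormones, apolipoproteins build lipoprotein particles, and fibrinogen and the coagulation factors form clots. A second set, the acute phase proteins, is made in larger amounts when inflammatory cytokines such as interleukin-6 act on the liver cell through STAT3 and C/EBP factors. Blood from the gut reaches the liver first, which is the connection that such a chip models with a loop of medium.

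The 4 libraries held 430815 and 1023032 reads (mono-culture 1 and 2) and 1657430 and 945975 reads (co-culture 1 and 2), so 1 read stood for 0.603 to 2.32 CPM and 3 reads, taken as the floor of detection, for 1.81 to 6.96 CPM. All 10 liver markers were above 0 in each of the 4 libraries, with a summed level of 31971 to 36586 CPM in mono-culture and 38005 to 42285 CPM in co-culture. Among 16 gut markers, 9 to 11 were at 0 in a library. CDH17 was at 0 in all 4, beside 49.3 and 31.7 CPM in the Caco-2 mono-culture controls. CDX2 was also at 0 in all 4, but had only 2.74 and 3.53 CPM in those Caco-2 libraries, so its zeros say little. LGALS4 and FABP2 were at 0 in those Caco-2 libraries. The summed level of 189 to 239 CPM came mainly from TFF3, which had 195 CPM in mono-culture 1 and 135 to 141 CPM in the other 3. TFF3 was lower in those Caco-2 libraries, at 68.4 and 69.3 CPM. The 69 genes that marked Caco-2 most cleanly summed to 1.07% and 1.19% of their Caco-2 level in mono-culture and to 1.03% and 1.09% in co-culture. Of 14 myoblast markers, 12 or 13 were at 0, although the extraction label speaks of myoblasts, and 9 or 10 of 10 fibroblast and endothelial markers were at 0. As in any bulk sample, fewer cells of a kind and less RNA per cell cannot be told apart.

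Pairs of libraries were about as far apart within a culture as between cultures. Over the 4958 genes, the median absolute log2 difference was 0.28 between the 2 mono-culture libraries and 0.22 between the 2 co-culture libraries. Between a mono-culture and a co-culture library it lay from 0.25 to 0.32, and mono-culture 2 was nearer to co-culture 1 than to its own replicate. Most genes therefore differed by no more than replicates did.

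**Figure D1:**
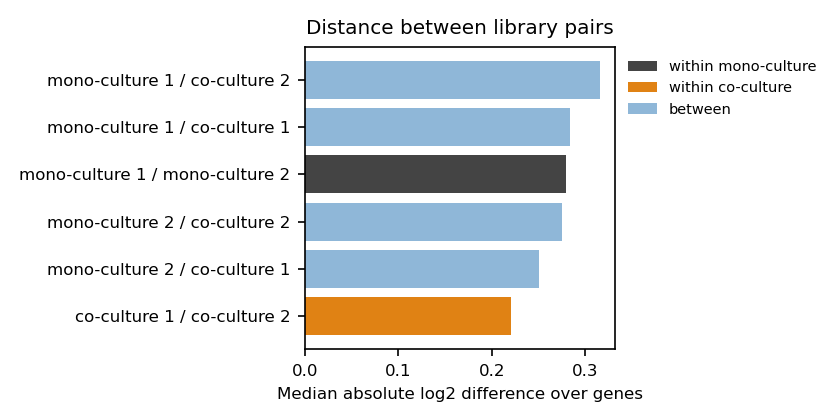
Median absolute log2 difference over 4958 genes for each of the 6 pairs of libraries (bars start at 0). The bar of the mono-culture pair (0.28) lies within the range of the pairs from different cultures (0.25 to 0.32), and the co-culture pair is the nearest (0.22).

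Against that background, 18 genes (0.363% of those tested) passed an adjusted p of 0.05 in limma, 9 of them higher (0.182%) and 9 lower (0.182%) in co-culture. Lower were the protease inhibitors SPINK1 and SERPINA3 with the locus that contains SERPINA3, the pseudogenes EEF1B2P2 and EEF1B2P3, the growth factor binding protein IGFBP1, the mitochondrial ribosomal RNA MT-RNR2, the fibrinogen-like hepatokine FGL1 and the noncoding RNA MALAT1. Higher were APOA1, AFP, SERPINA6, the ferritin light chain FTL, a histone H4 gene and 4 copies of 5.8S ribosomal RNA. In all 18 the 2 co-culture libraries lay on the same side of both mono-culture libraries. A call on these same values makes that likely, so it is no separate support. Over all tested genes it held in 24.4% for higher and 15.7% for lower values. Over all tested genes the median log2 change was 0.05, with 56.6% of genes higher, and in edgeR it was 0.00. Without adjustment, 487 genes (9.82%) had a p under 0.05, 326 higher (6.58%) and 161 lower (3.25%). All log2 changes are co-culture minus mono-culture on the scale of log2(CPM + 1), with their standard error (SE).

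The count differed between fits: none of the 4958 genes passed with a constant prior variance (442 at an unadjusted p under 0.05) or in a fit over all 8 HepG2 libraries (72 at an unadjusted p under 0.05), while edgeR, on the 4 libraries, called 23 genes (0.464%), 7 higher (0.141%) and 16 lower (0.323%). Left out one at a time, mono-culture 1, mono-culture 2, co-culture 1 and co-culture 2 gave 67, 165, 29 and 15 calls, of which 17, 18, 15 and 15 were among the 18.

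**Figure D2:**
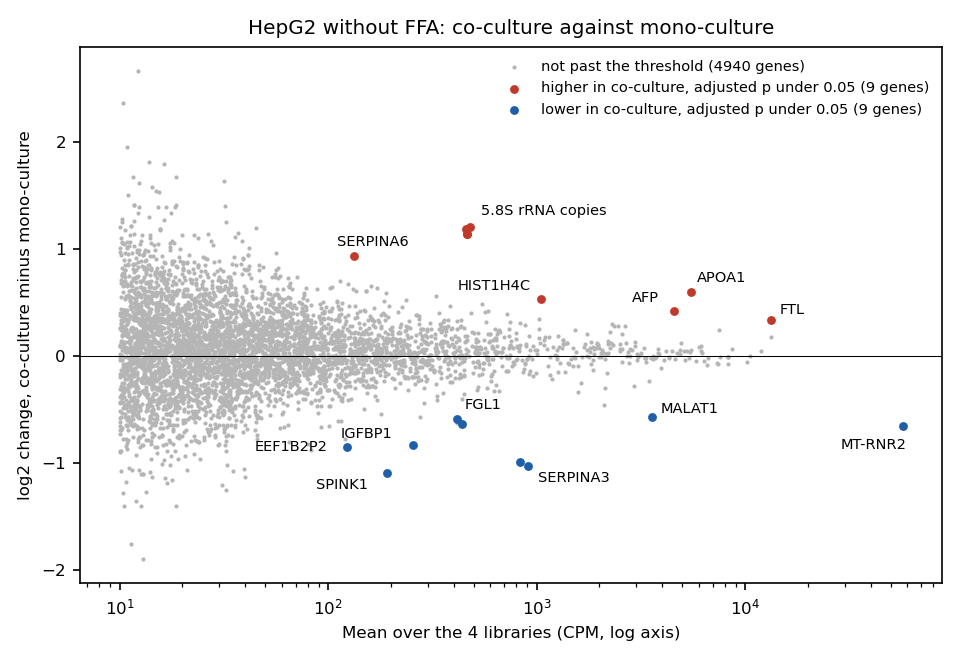
Mean level over the 4 libraries in CPM (log axis) against the log2 change from mono-culture to co-culture, one point per gene, with the 9 higher (red) and 9 lower (blue) genes past an adjusted p of 0.05 in limma. Every coloured point lies above 100 CPM on the horizontal axis, where the grey cloud is narrow.

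In limma only abundant genes passed. Every gene called there averaged at least 100 CPM, a level that 1101 of the 4958 genes reached. The median SE of the log2 change was 0.13 for those genes and 0.44 for the 1537 genes under 20 CPM. In limma, a change that passed for an abundant mRNA could therefore miss the threshold for a scarce one. On the same reads, edgeR also called scarcer genes. BBIP1 was one, at 53.4 and 53.8 CPM in mono-culture against 25.9 and 24.3 CPM in co-culture (edgeR adjusted p = 0.048). Liver genes under 10 CPM, such as CPT1A at 1.81 to 3.91 CPM, were not tested.

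SERPINA3 (alpha-1-antichymotrypsin, an acute phase inhibitor of neutrophil cathepsin G) was read at 1207 and 1219 CPM in mono-culture and at 679.9 and 520.1 CPM in co-culture. Both co-culture libraries thus lay far below both mono-culture libraries. It fell by 1.03 ± 0.12 (SE) on the log2 scale, a 2.04-fold decrease with a limma adjusted p of 0.000435. Its gene (GRCh38, chromosome 14, 94612384 to 94624055, plus strand) lies wholly inside a longer locus on the same strand, AL049839.2 (94592058 to 94624646), annotated as protein-coding, which was called beside it at 1114 and 1099 against 647 and 475 CPM. Reads of the shared stretch cannot be told apart, so the 2 calls may be a single one.

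SPINK1, a secreted trypsin inhibitor, had 248 and 276 CPM in mono-culture and 118 and 127 CPM in co-culture, with no overlap between the cultures. The log2 change was -1.09 ± 0.14 (SE; limma adjusted p = 0.000967), with 195 and 120 reads behind the co-culture values. IGFBP1, which binds insulin-like growth factors and is known to follow insulin and stress in hepatocytes, had 325 and 328 CPM in mono-culture against 157 and 214 CPM. Its level was nearly the same in the mono-culture pair and lower in both co-culture libraries, by 0.83 ± 0.15 (SE) on the log2 scale (limma adjusted p = 0.0268), though not past the threshold without co-culture 1 (-0.61, limma adjusted p = 0.0945). FGL1 had 487 and 507 CPM in mono-culture and 318 and 340.4 CPM in co-culture. The change was -0.59 ± 0.11 (SE; limma adjusted p = 0.0302), and 0.0912 without co-culture 1.

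Haptoglobin (HP), the acute phase scavenger of free hemoglobin, missed the threshold in limma (log2 change -0.78 ± 0.16, SE; adjusted p = 0.0672) and passed it in edgeR (adjusted p = 0.0182). Its levels were 165 and 142 CPM in mono-culture and 85.7 and 92 CPM in co-culture, again without overlap.

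Among the 12 tested genes of the complement and acute phase list, of 28 listed, 1 passed lower and 0 passed higher, and the median log2 change was -0.26 beside 0.05 over all tested genes. In 5 of them (41.7%, beside 15.7% of all tested genes) both co-culture libraries lay below both mono-culture libraries. In 2 (16.7%, beside 24.4%) both lay above. The list did not move as a block. ORM1 and ORM2 (orosomucoids, classical acute phase proteins with near-identical sequences) stood at 339, 348, 343 and 334 CPM and at 183, 235, 208 and 209 CPM, in the order mono-culture 1 and 2, co-culture 1 and 2, which is flat within the replicate spread. Complement C5 had 51.1 and 36.2 against 16.3 and 20.1 CPM, with a limma adjusted p of 0.15, and C3 had 227 and 236 against 203 and 173 CPM (limma adjusted p = 0.502). C5, C3 and both orosomucoids were chosen after their values were seen. The median moved to -0.12 without co-culture 2 and to -0.40 without co-culture 1.

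APOA1, the main protein of high density lipoprotein, stood at 4849 and 3949 CPM in mono-culture and at 6653 and 6559.6 CPM in co-culture. Both co-culture libraries were above both mono-culture libraries, and the co-culture pair was nearly equal. It rose by 0.59 ± 0.09 (SE) on the log2 scale, which is 1.51-fold (limma adjusted p = 0.00494), and edgeR called it too (adjusted p = 0.00299). The gene lies on chromosome 11, from 116835751 to 116837622 on the minus strand.

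AFP (alpha-fetoprotein, the fetal counterpart of albumin, kept on in HepG2) had 4106 and 3664 CPM in mono-culture and 4914 and 5481 CPM in co-culture. The cultures did not overlap, and the rise was 0.42 ± 0.08 (SE) on the log2 scale or 1.34-fold (limma adjusted p = 0.0437), missed in edgeR (adjusted p = 0.0594) and without co-culture 2. Albumin itself (ALB), encoded beside AFP, did not pass: 7469.6 and 6267 CPM against 6814 and 9533 CPM, with co-culture 1 between the mono-culture libraries. SERPINA6, which encodes corticosteroid-binding globulin, the plasma carrier of cortisol, had 97.5 and 84.1 CPM in mono-culture and 146 and 205 CPM in co-culture. It was higher in both co-culture libraries by 0.93 ± 0.18 (SE) on the log2 scale (limma adjusted p = 0.0423), but without co-culture 2 the change was 0.68 and the adjusted p 0.552.

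Promoters are shown for SPINK1, which fell, and for SERPINA6 and AFP, which rose. They are the RefSeq sequences upstream of the annotated start on GRCh38.p14, 5′ to 3′ along the gene, with position -1 next to the start. Capitals mark matches, on either strand, to the STAT motif TTCNNNGAA, the C/EBP motif TTGCNNAA and the HNF1 half-site GTTAAT, factors that are known to act on liver genes. These letters occur in the 250 bases upstream of 6.57%, 9.05% and 6.23% of the 35116 promoters in the table. Of the 18 called genes, 6 had a promoter there, and SERPINA3, MALAT1 and FTL held none of the 3 motifs.
SPINK1, chr5:147831672-147831921, minus strand: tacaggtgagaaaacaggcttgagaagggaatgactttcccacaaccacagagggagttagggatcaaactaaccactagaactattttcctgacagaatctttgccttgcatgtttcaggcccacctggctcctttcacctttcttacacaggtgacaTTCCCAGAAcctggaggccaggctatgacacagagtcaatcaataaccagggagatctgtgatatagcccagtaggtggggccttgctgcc
SERPINA6, chr14:94323397-94323586, minus strand: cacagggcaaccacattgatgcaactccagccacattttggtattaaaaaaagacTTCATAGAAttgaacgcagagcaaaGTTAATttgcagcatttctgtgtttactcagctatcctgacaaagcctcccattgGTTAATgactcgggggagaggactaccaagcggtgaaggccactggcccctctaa
AFP, chr4:73435971-73436220, plus strand: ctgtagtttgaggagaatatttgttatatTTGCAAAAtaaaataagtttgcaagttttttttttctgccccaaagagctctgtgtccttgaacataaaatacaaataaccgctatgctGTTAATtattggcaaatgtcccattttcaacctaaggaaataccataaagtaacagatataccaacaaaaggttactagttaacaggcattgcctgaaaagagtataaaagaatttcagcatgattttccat
SPINK1 held a STAT match at -91 to -83 and neither of the other motifs. SERPINA6, shown up to position -61, held a STAT match at -195 to -187 and HNF1 half-sites from -170 and from -115, with another half-site at -58 beyond the stretch shown, and AFP held a C/EBP match from -221 and an HNF1 half-site from -132. A gene that fell and one that rose thus shared the STAT letters, and a match is a description of the window and not a bound site.

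FTL, the light chain of the iron store ferritin, was read at 11924 and 11683 CPM in mono-culture and at 14443 and 15257 CPM in co-culture. The replicates lay close together and the cultures apart, and the rise of 0.33 ± 0.07 (SE) on the log2 scale or 1.26-fold was the smallest called (limma adjusted p = 0.0471). It was not called by edgeR (adjusted p = 0.158) or with quantile normalization (log2 change 0.10), and without mono-culture 1 or co-culture 2 the limma adjusted p was 0.0517 and 0.102. The heavy chain FTH1, chosen after its values were seen, stood at 2549 and 2259 against 2742 and 3084 CPM (limma adjusted p = 0.304). Of 11 iron genes listed, 3 were tested, and 1 passed.

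HIST1H4C, a replication-dependent histone H4 gene called H4C3 in GENCODE, had 803 and 909 CPM in mono-culture and 1275 and 1197 CPM in co-culture. It was higher in both co-culture libraries, by 0.53 ± 0.10 (SE) on the log2 scale (limma adjusted p = 0.0283). Limma did not call it after median-ratio rescaling (adjusted p = 0.115) or quantile normalization (0.0788). With FFA the log2 difference was 0.09 ± 0.16 (SE). Histone H4 genes are close copies of each other, and the counting of shared reads among them is not known.

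**Figure D3:**
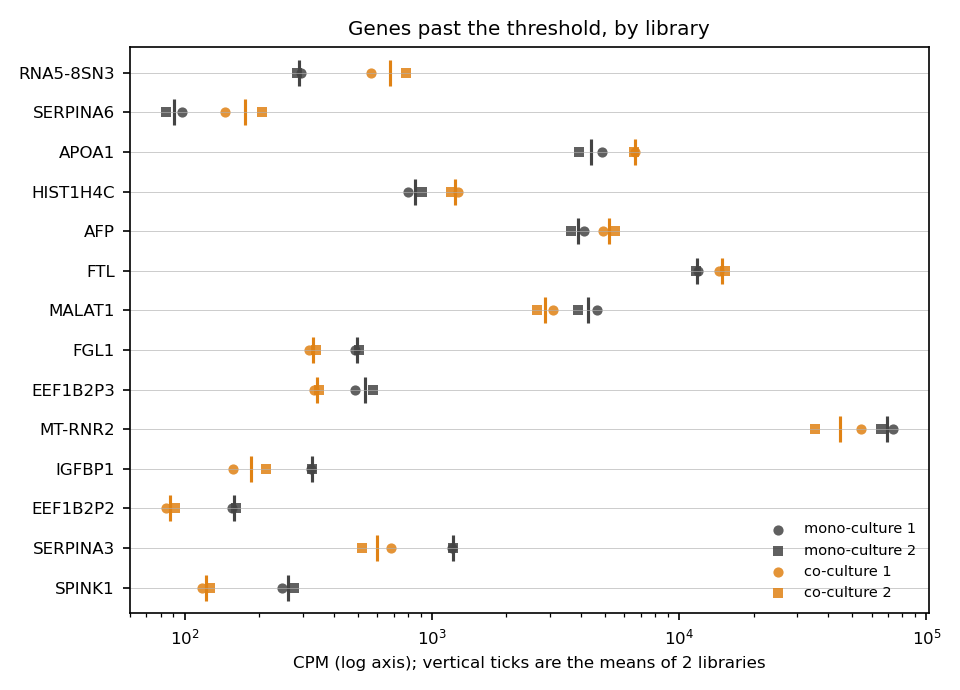
CPM (log axis) of 14 called genes in each library, mono-culture in grey and co-culture in orange, with replicate 1 as a circle, replicate 2 as a square and the mean of 2 libraries as a tick. In each row the orange and grey symbols do not overlap. RNA5-8SN3 stands for the 4 copies of 5.8S ribosomal RNA, and AL049839.2, which contains SERPINA3, is left out.

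Apolipoproteins lay mostly above zero, and the medians of the plasma carriers and of the coagulation factors were near it. Of 14 tested apolipoproteins and lipoprotein assembly genes (21 listed), 1 passed higher and 0 lower, with a median log2 change of 0.30. Both co-culture libraries exceeded both mono-culture libraries in 8 of the 14 (57.1%, beside 24.4% of all tested genes), and the opposite held for none. APOH had 2439.6 and 2031 CPM in mono-culture and 2548 and 2844 CPM in co-culture, and LCAT, the enzyme that esterifies cholesterol in high density lipoprotein, 41.8 and 26.4 against 60.3 and 57.1 CPM (limma adjusted p = 0.366 and 0.304, both chosen after their values were seen). APOB, the scaffold of very low density lipoprotein, was flat within its spread, at 269 and 168 against 221 and 212 CPM. The median of this list was 0.19 to 0.39 when a library was left out.

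Of 14 tested plasma carriers (19 listed), the 2 described, AFP and SERPINA6, passed higher and 0 lower, and the median log2 change was 0.04, which turned to -0.01 with quantile normalization and -0.03 without mono-culture 2. Transferrin (TF), the iron carrier, stood at 1009.7 and 806 CPM in mono-culture and at 1131 and 1158 CPM in co-culture, and the retinol carrier RBP4 at 973 and 903 against 1113 and 1109 CPM. Neither passed (limma adjusted p = 0.303 and 0.403), and both were chosen after their values were seen. Of 13 tested fibrinogen and coagulation genes (23 listed), FGL1 was the 1 that passed, and the median was 0.07. FGL1 resembles fibrinogen in sequence but is not a chain of it, and the fibrinogen beta chain FGB had 822 and 673 against 880.2 and 962 CPM (limma adjusted p = 0.377). The level of FABP1, the liver fatty acid binding protein, was 10921 and 9847 against 9744 and 10223 CPM, with overlapping cultures.

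The largest rise among the called genes was that of 5.8S ribosomal RNA, the small RNA that pairs with 28S RNA in the large ribosomal subunit and carries no poly(A) tail when mature. Of 14 annotated copies, 4 passed the filter and all 4 were called. RNA5-8SN3 had 295 and 283 CPM in mono-culture and 564 and 784 CPM in co-culture. RNA5-8SN2 had 260.0 and 298 against 552 and 727 CPM, RNA5-8SN1 had 290.1 and 282 against 532 and 745 CPM, and the unnamed copy 5_8S_rRNA had 295 and 282 against 557 and 724 CPM. In each copy both co-culture libraries were far above both mono-culture libraries, and co-culture 2 was above co-culture 1. The log2 changes were 1.13 to 1.20, with limma adjusted p of 0.000435 to 0.000801. The 4 copies lie on chromosome 21 (RNA5-8SN2 from 8212572 to 8212724, 5_8S_rRNA from 8256781 to 8256933, RNA5-8SN3 from 8395607 to 8395759 and RNA5-8SN1 from 8439823 to 8439975, all on the plus strand), and their 153 bases were identical in GENCODE 44, so their reads cannot be assigned to a copy and the 4 calls are 1 measurement. The shared sequence is printed because it shows why:
5.8S ribosomal RNA, shared by the 4 copies: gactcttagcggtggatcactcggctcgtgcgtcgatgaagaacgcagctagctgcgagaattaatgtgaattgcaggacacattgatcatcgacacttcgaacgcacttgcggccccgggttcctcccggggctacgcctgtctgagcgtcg
In Caco-2 cells without FFA the same copies had 54.1 to 87.6 CPM in mono-culture and 268 to 337 CPM in co-culture, a log2 difference of 2.03 to 2.29. These are separate libraries, and the difference was not tested here.

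MT-RNR2, the 16S ribosomal RNA of the mitochondrion and the most read gene of each library, went the other way. It had 73034 and 65608 CPM in mono-culture and 54172 and 35525 CPM in co-culture. Co-culture 2 was well below co-culture 1, and both were below the mono-culture pair. The log2 change was -0.66 ± 0.13 (SE), with a limma adjusted p of 0.0423. The share of all mitochondrial genes in the reads was 10.6% and 9.99% in mono-culture and 8.77% and 6.29% in co-culture. MT-RNR1, the 12S ribosomal RNA, did not show the same difference, with 8533 and 8488 against 8994 and 7257 CPM. DESeq2 did not call MT-RNR2 (adjusted p = 0.882), nor did limma on quantile-normalized values, which make the top gene of each library equal by construction.

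Among the 13 mRNAs of the mitochondrial genome, all tested, 0 passed in either direction, and the median log2 change was -0.22. MT-CO1, which encodes a subunit of cytochrome c oxidase, had 2463 and 2392 CPM in mono-culture and 2042 and 1520.1 CPM in co-culture (limma adjusted p = 0.142). In 6 of the 13 (46.2%, beside 15.7% of all tested genes) both co-culture libraries were below both mono-culture libraries, and in none were they above. This rested in part on co-culture 2, since the median was -0.06 without it and -0.43 without co-culture 1. The 49 nuclear genes of the respiratory chain and ATP synthase had a median of 0.04, with 0 passing in either direction. Of these, 19 (38.8%, beside 24.4% of all tested genes) lay above without overlap and 5 (10.2%, beside 15.7%) below.

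MALAT1, an abundant nuclear noncoding RNA, had 4645 and 3909.9 CPM in mono-culture and 3101 and 2654 CPM in co-culture. Both co-culture libraries were lower, by 0.57 ± 0.10 (SE) on the log2 scale (limma adjusted p = 0.016), and edgeR called it as well (adjusted p = 0.00203). Hosts of small nucleolar RNAs, noncoding RNAs whose introns release guide RNAs for ribosomal RNA modification, showed a smaller difference: 0 of 17 tested genes passed, the median was -0.13, and in 10 of them (58.8%, beside 15.7%) co-culture was below mono-culture without overlap. SNHG12 had 32.5 and 15.6 against 9.66 and 11.6 CPM (limma adjusted p = 0.461), and SNHG8, chosen after its values were seen, 420.1 and 433 against 359 and 359 CPM (0.48). Of 468 small nucleolar and Cajal body RNAs, 7 passed the filter and 0 the test. SNORD13 had 216 and 172 against 252 and 302 CPM (limma adjusted p = 0.232).

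The last called genes were EEF1B2P2 and EEF1B2P3, processed pseudogenes of the translation elongation factor gene EEF1B2. They had 156 and 161 against 83.9 and 90.9 CPM, and 489.8 and 579 against 332 and 349.9 CPM. Their transcripts matched EEF1B2 at 95.6% and 99.0% of aligned bases, and the parent gene stood at 2119 and 2258 against 2381 and 2354 CPM, without a call. How reads were divided among the 3 is not known, so neither pseudogene value is certain. Without co-culture 1, EEF1B2P2 had a limma adjusted p of 0.0821.

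Genes of cell division lay above zero as a group, though none of them passed. Of 38 mitosis and spindle genes, 25 were tested and 0 passed, the median log2 change was 0.33, and 23 of the 25 were higher in co-culture. In 16 (64%, beside 24.4% of all tested genes) the cultures did not overlap. BIRC5 (survivin, of the chromosomal passenger complex) had 6.97 and 27.4 CPM in mono-culture and 49.5 and 42.3 CPM in co-culture, where the first value is 3 reads, at the floor (limma adjusted p = 0.209). CKS2, a partner of cyclin-dependent kinases, had 71.9 and 103 against 124 and 158 CPM (0.22), and CDK1 itself 13.9 and 8.8 against 23.5 and 25.4 CPM (0.377), both chosen after their values were seen. Among 15 tested DNA replication and nucleotide synthesis genes 0 passed. Without overlap, 7 lay above (46.7%, beside 24.4% of all tested genes) and none below (beside 15.7%). Their median was 0.24, and it turned to -0.04 with a minimum mean of 50 CPM. PCNA, the sliding clamp of DNA polymerase, had 20.9 and 34.2 CPM in mono-culture and 59.7 and 65.5 CPM in co-culture, the nearest of these to the threshold (log2 change 1.19 ± 0.27, SE; limma adjusted p = 0.0908). The mitosis median was 0.30 to 0.37 when a library was left out and 0.22 in edgeR. Both lists hold scarce mRNAs with few reads in mono-culture 1.

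Cytoskeletal genes also lay above zero on balance. Of 22 tested keratins, actins and tubulins 0 passed, and the median was 0.21. Without overlap, 11 lay above (50%, beside 24.4% of all tested genes) and 3 below (13.6%, beside 15.7%). CFL1 (cofilin, which severs actin filaments) had 125 and 144 against 215 and 203 CPM (limma adjusted p = 0.1), and KRT8, the keratin of simple epithelia, 304 and 346 against 459 and 437 CPM (0.162, chosen after its values were seen). Among 14 tested glycolysis and hypoxia genes 0 passed, with a median of 0.18. GAPDH had 2131 and 2144 against 2549 and 2624 CPM, and SLC2A2, the glucose transporter of hepatocytes, 34.8 and 20.5 against 8.45 and 10.6 CPM (limma adjusted p = 0.232 and 0.22). PLLP (plasmolipin, a membrane protein of myelin and epithelia) was the higher gene nearest to the threshold, at 13.9 and 20.5 against 42.2 and 50.8 CPM (limma adjusted p = 0.0741).

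**Figure D4:**
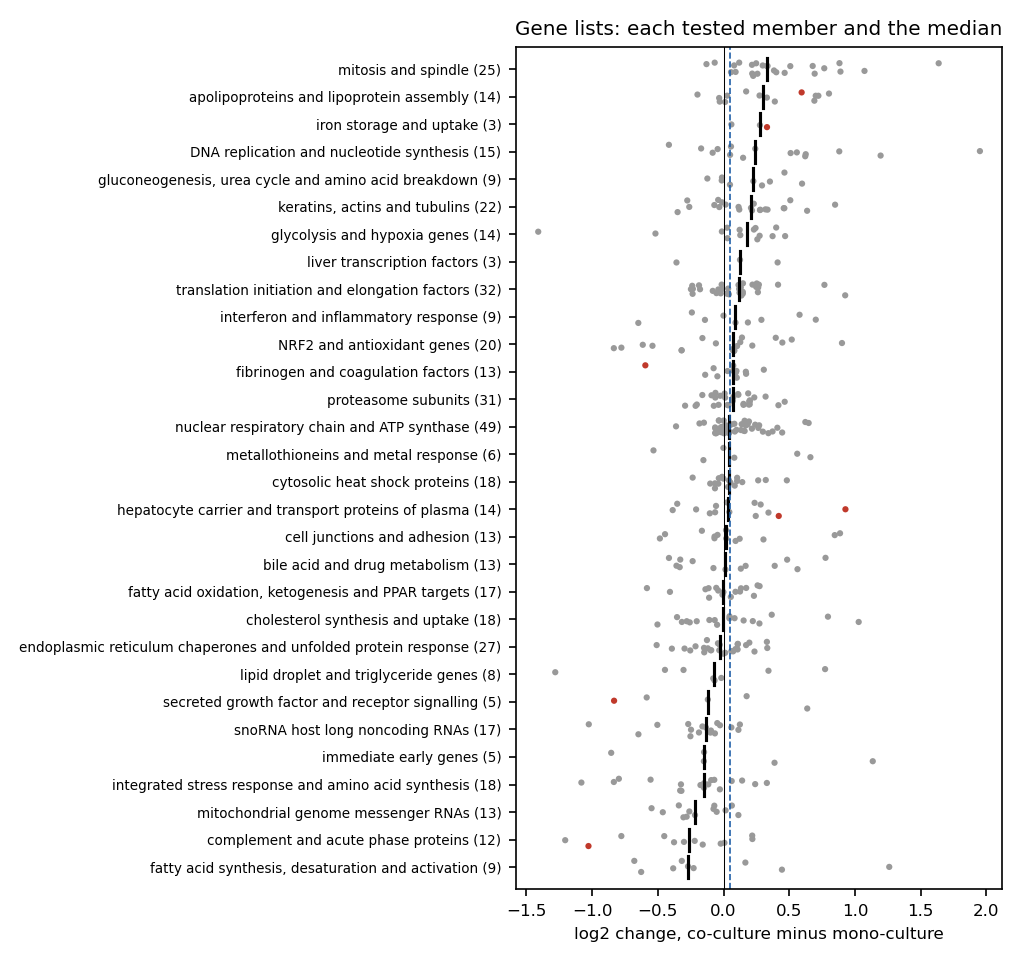
Log2 change from mono-culture to co-culture of each tested member (points, called genes in red) of 30 gene lists (all but ribosomal proteins, small nucleolar RNAs and 5.8S copies), with the list's median as a black bar and the number tested in parentheses. The dashed line is the median of all 4958 genes (0.05). Mitosis and spindle (0.33) and apolipoproteins (0.30) have the highest medians, and complement and acute phase proteins (-0.26) and fatty acid synthesis (-0.27) the lowest.

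The translation and protein turnover lists lay near the median of all genes. Of 80 ribosomal protein genes, 32 translation factors and 31 proteasome subunits tested, 0 passed, with medians of 0.04, 0.12 and 0.07. Without overlap, 28 (35%), 14 (43.8%) and 10 (32.3%) lay above, beside 24.4% of all tested genes. Below lay 3 (3.75%), 5 (15.6%) and 2 (6.45%), beside 15.7%. RPS15 had 494 and 499 against 695 and 638 CPM (limma adjusted p = 0.147), and ribosomal protein mRNAs made up 24.9% to 25.8% of the reads of each library.

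Lipid genes, the subject of the wider study, held no call. Since only 0.363% of all tested genes were called, this says little for lists of this size. Of 18 tested cholesterol genes, 17 fatty acid oxidation genes, 9 fatty acid synthesis genes and 8 lipid droplet genes, 0 were called, with medians of 0.00, 0.00, -0.27 and -0.07. Without overlap, 27.8%, 17.6%, 22.2% and 0% lay above, beside 24.4% of all tested genes. Below lay 11.1%, 5.88%, 11.1% and 25%, beside 15.7%. FADS1, a desaturase, had 6.97 and 5.86 against 13.9 and 20.1 CPM, and ACSL3, which activates fatty acids at the lipid droplet, 76.6 and 67.4 against 50.7 and 39.1 CPM (limma adjusted p = 0.414 and 0.309). The fatty acid synthesis median turned positive (0.14) without mono-culture 1. PLIN2, the main coat protein of lipid droplets, stood at 174 and 164 against 154 and 181 CPM, overlapping and flat.

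Stress lists were also without calls, which again says little beside 0.363% of all tested genes. Of 27 tested endoplasmic reticulum chaperone genes, 18 integrated stress response genes, 18 heat shock genes and 6 metallothionein genes 0 passed, with medians of -0.03, -0.15, 0.04 and 0.04. Without overlap, 18.5% of the chaperone, 11.1% of the heat shock and 0% of the metallothionein genes lay above, beside 24.4% of all tested genes. Below lay 11.1%, 5.56% and 0%, beside 15.7%. HSPA5, the main chaperone of the endoplasmic reticulum, had 1335 and 1240.4 against 1457 and 1318 CPM, and DDIT3 (CHOP) 92.9 and 129 against 77.8 and 98.3 CPM, both overlapping. MT1X had 37.1 and 30.3 against 38.6 and 32.8 CPM. Integrated stress response genes lay below without overlap in 7 of 18 (38.9%, beside 15.7% of all tested genes) and above in 2 (11.1%, beside 24.4%). CTH, of transsulfuration, had 34.8 and 25.4 against 13.9 and 20.1 CPM (limma adjusted p = 0.469).

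The other liver lists were 13 tested genes of bile acid and drug metabolism, 9 of gluconeogenesis and the urea cycle and 3 liver transcription factors, with 0 called and medians of 0.01, 0.23 and 0.13. NR0B2, a nuclear receptor that represses bile acid synthesis, had 218 and 174 against 142 and 150.1 CPM (limma adjusted p = 0.392). Among 13 junction, 9 interferon and 5 immediate early genes tested 0 passed, with medians of 0.02, 0.09 and -0.15, and of 5 tested growth factor and receptor genes IGFBP1 was the 1 called. Counts of 0 in lists this short say little, since 0.363% of all tested genes were called.

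The 4 HepG2 libraries with FFA, which share no library with the comparison above, give the same contrast a second time. They were shallower, with 424538 and 274857 reads in mono-culture and 147096 and 49634 in co-culture. A single read stood for 2.36 and 3.64 CPM in mono-culture and for 6.8 and 20.1 CPM in co-culture, so scarcer genes rest on few reads. The values with FFA come from the limma fit of all 8 HepG2 libraries, where 0 genes passed (852 of 4958 at an unadjusted p under 0.05). In that fit the contrast without FFA had 0 calls too, so 0 is not to be set against 18. Each SE with FFA uses the spread over all 8 libraries, and each SE without FFA that over 4. Of the 18 called genes, 15 had the same sign with FFA, 8 of the 9 higher and 7 of the 9 lower. Over all tested genes 54.5% had the same sign. Counting the 5.8S copies once and SERPINA3 with its overlapping locus once, it was 11 of 14. With FFA, APOA1 had 3514 and 4762 CPM in mono-culture and 7111 and 9408 CPM in co-culture, a log2 difference of 1.00 ± 0.18 (SE) beside 0.59 without FFA. SERPINA6 differed by 0.90 ± 0.22 (SE) beside 0.93, and AFP by 0.70 ± 0.17 beside 0.42. SERPINA3, at 989 and 1048 against 911 and 544 CPM, was lower by 0.53 ± 0.23 on the log2 scale, and MALAT1 by 0.80 ± 0.15. IGFBP1 overlapped with FFA, at 511 and 728 against 673 and 242 CPM, and so did SPINK1, FGL1 and HIST1H4C. FGL1 had 386 and 418 against 408 and 201 CPM, and HIST1H4C 608 and 626 against 564 and 766 CPM. These overlapping genes are counted among those of the same sign. MT-RNR2 was lower by 0.24 ± 0.18 (SE), and the 5.8S copies were higher by 0.79 to 1.00.

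The 3 genes of opposite sign were FTL, EEF1B2P2 and EEF1B2P3. FTL had 13107 and 20595 CPM in mono-culture and 13800 and 10537 CPM in co-culture with FFA, a log2 difference of -0.45 ± 0.20 (SE). EEF1B2P2 had 70.7 and 29.1 CPM in mono-culture and 61.2 and 121 CPM in co-culture with FFA, with overlap and few reads. For these 3 the interaction of culture and FFA had an unadjusted p of 0.0275, 0.0235 and 0.0143, and after adjustment no gene passed in the limma fit of 8 libraries (361 of 4958 at an unadjusted p under 0.05).

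**Figure D5:**
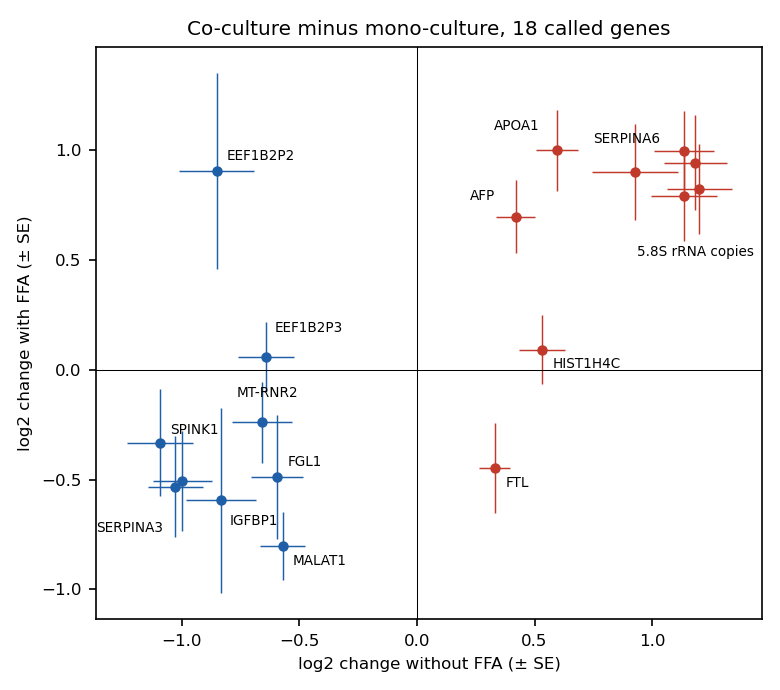
Log2 change from mono-culture to co-culture of the 18 called genes without FFA (horizontal) and with FFA (vertical), each with its SE, in red for genes higher and blue for genes lower without FFA. Of the points, 15 lie in the quadrants of equal sign, and FTL, EEF1B2P2 and EEF1B2P3 lie outside them.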

How the data were processed

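Libraries were barcoded PCR-cDNA made from polyadenylated RNA, without molecular identifiers, and read on an Oxford Nanopore device. The submitters' processing notes name minimap2 2.22 and GRCh38. The steps described for mRNA-seq (removal of ribosomal and mitochondrial reads, STAR, RSEM) are not stated to apply to Nanopore reads, and counting and strand are not given in the sources used here. The deposited values are called TPM by the authors but are whole multiples of 1 step per library (100% of values whole within 0.1 read), and so were used as CPM, without length correction. The study describes repeated experiments, but no label says whether the 2 libraries of a group came from separate chips or cell preparations. The p-values therefore measure the spread between these libraries, which may be technical.

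Values were transformed as log2(CPM + 1). Co-culture was compared with mono-culture in limma 3.58.1 (R 4.3.3; moderated test, trended prior variance with a median of 12.8 prior degrees of freedom beside 2 residual ones) over 4958 genes, with Benjamini-Hochberg adjustment and a threshold of 0.05. Whole reads were recovered for edgeR 4.0.16 (quasi-likelihood, TMM) and DESeq2 1.42.0 as alternatives, and the scripts were tested on simulated data. Genes and the 33 lists, given by counts and medians, were chosen with earlier results of these data known. Named were, per direction, up to 10 called genes by size in limma and in edgeR, the nearest uncalled genes without overlap (at least 20 reads on average) up to 10, in each list the gene with the smallest p, and preset genes. A selection of these is printed. Positions are from GENCODE 44, which held 60295 of 60623 identifiers. Values with FFA and the interaction came from a limma fit over all 8 HepG2 libraries, with a median of 4.04 prior degrees of freedom. Detection floors cover counting error only, and each SE rests on the spread between libraries.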

Additional observations from a re-analysis of the deposited data

How the results depend on the processing

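The 18 calls kept their sign in the alternative fits listed here, except that quantile normalization sets MT-RNR2 to no difference by construction, but not all kept their call. The count of 18 was 18 with a pseudocount of 0.1 or 5 or a minimum mean of 1 CPM, 17 with a minimum of 50 CPM, 14 with median-ratio rescaling, 16 in DESeq2, 23 in edgeR and 26 at an adjusted p under 0.1. It was 51 with no filter, 7 with quantile normalization, 0 with a constant prior variance, 0 in the fit of all 8 HepG2 libraries and 33 in DESeq2 with the study's thresholds. With 1 library left out it ranged from 15 to 165, the lone library of a culture being assumed to vary like the others. With the replicate number as a block it was 88 in limma and 70 in edgeR, including all 18 and 17 of the 18. The numbers are not stated to pair the libraries, and there are only 2 pairs, so the block was not used. The correlation between deviations of libraries with the same number was 0.0335 over all tested genes and 0.113 over the 1101 genes of at least 100 CPM. Why the counts differ was not tested. Of 33 list medians, 19 changed sign in at least 1 alternative, 2 of them among the 11 of at least 0.2 in size: fatty acid synthesis (0.14 without mono-culture 1) and DNA replication (-0.04 with a minimum of 50 CPM). Depth limits the test to abundant genes.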

Other observations

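Antioxidant genes, many of them targets of the transcription factor NRF2, lay on both sides of zero. Of 20 tested genes 0 passed in limma, with a median log2 change of 0.08. Without overlap, 5 lay above (25%, beside 24.4% of all tested genes) and 7 below (35%, beside 15.7%). NQO1, a quinone reductase, had 415 and 421 CPM in mono-culture and 513 and 592 CPM in co-culture, while SOD2, the mitochondrial superoxide dismutase, had 153 and 126 against 85.1 and 96.2 CPM (limma adjusted p = 0.22 and 0.218). GCLC, of glutathione synthesis and chosen after its values were seen, had 53.4 and 62.6 against 36.2 and 30.7 CPM (limma adjusted p = 0.274).

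Of the 23 genes called by edgeR, 16 were also called by limma. Among the other 7 were HP, ESF1, a nucleolar protein of ribosomal RNA processing (99.8 and 105 against 58.5 and 56 CPM, edgeR adjusted p = 0.0297), BBIP1, a subunit of the BBSome of cilia (53.4 and 53.8 against 25.9 and 24.3 CPM, 0.048), and the noncoding GABPB1-AS1 (116 and 99.7 against 65.2 and 51.8 CPM, 0.048). All 4 were lower in both co-culture libraries.

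The tested genes were split by annotated exon length into 4 classes of 1236. The shortest class (69 to 2296 bases) held 13 of the 18 calls, 8 higher and 5 lower. Of the 8 higher, 4 are the identical 5.8S copies, which are 1 measurement. This class also held 41.3% to 43.5% of the reads of a library, beside 11.6% to 11.9% in the longest class. Whether length itself matters was not tested. The median log2 change was 0.07, 0.08, 0.04 and -0.00 from the shortest class to the longest.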
